A study of Mus musculus with 8 samples.

Results

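The genes of the transforming growth factor beta (TGF-beta) ligands, their receptors and the proteins that store them were followed in fibroblasts of the mouse colon. They are the ligand genes Tgfb1, Tgfb2 and Tgfb3, the receptor genes Tgfbr1, Tgfbr2 and Tgfbr3, the latent TGF-beta binding protein genes Ltbp1, Ltbp2 and Ltbp4, and Tgfbi, which codes for a matrix protein named for its induction by TGF-beta. Members were chosen by name: a gene was kept where the platform annotation named it alone for a transcript cluster, the array's unit of 1 value per transcript. All 10 were found, each with 1 cluster, among 30748 genes measured. The cells came from the colon of wild-type C57BL/6J mice and had been sorted for gp38 (podoplanin) and against Epcam, CD45 and CD31, which removes epithelial, blood and endothelial cells. They were then split by the surface protein CD90, coded by Thy1, into a CD90-negative population (samples 13, 15, 17 and 19 by their titles) and a CD90-positive one (samples 14, 16, 18 and 20). Both came from 4 mice without treatment in the labels, and no label says which samples share a mouse, so a p-value reflects only how far these 8 samples scatter. Neither age nor sex is given in the labels.

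TGF-beta is secreted in an inactive form, wrapped in its own propeptide, and in most tissues this latent complex is tied to an LTBP and through it to the fibrillin microfibrils of the matrix. Integrins and proteases release the ligand, which binds TGFBR2, recruits TGFBR1 and signals through phosphorylated SMAD2 and SMAD3; TGFBR3 (betaglycan) has no kinase domain and presents the ligand. In the gut wall fibroblasts both make and respond to TGF-beta, a known inducer of collagen and of the contractile proteins of myofibroblasts.

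Values are deposited log2 expression, with the mean ± SD of a population (n = 4) where single samples are not listed. A difference is the CD90-positive mean less the CD90-negative mean. A gene was called where its limma p, adjusted by Benjamini-Hochberg over all 17232 genes tested, was under 0.05. By that rule 29.6% of all genes tested were called, 14.0% higher and 15.7% lower in CD90-positive cells, and 7.18% were called with a difference of at least 2-fold, 3.76% higher and 3.42% lower. In 32.2% of the genes tested no value of 1 population lay within the range of the other, 14.9% with the CD90-positive values above and 17.3% with them below. Deposited values ran up to 19.9, while a 16-bit scanner ends at 16 on a log2 scale, so a fold holds on this scale alone; levels of different genes are not compared, since each has its own probes. In these sorted pools fewer cells with a transcript and less of it per cell cannot be told apart.

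Thy1, the check on the sort, lay between 5.46 and 5.57 in the CD90-negative and between 7.03 and 8.11 in the CD90-positive samples (difference 2.17; exact permutation test, two-sided, p = 0.0286, the lowest possible with 4 against 4). Pdpn was at 13.17 ± 0.2 and 13.2 ± 0.22. The measured pan-fibroblast markers averaged 15.1 to 15.31 and 15.17 to 15.29 per sample. Single markers differed all the same: of 7 tested, 3 were called higher and 2 lower in CD90-positive cells, against 29.6% of all genes called. Pdgfra was not analysed here. Epithelial markers were present and varied between samples in both populations (list means 7.62 to 9.61 and 8.04 to 9.54; limma called 0 of 11 tested, and 0 had an unadjusted p under 0.05), with Epcam at 8.06 ± 0.83 and 8.19 ± 0.83. Ptprc, for CD45, was too dim to be tested, at 4.57 ± 0.12 and 4.75 ± 0.21, and Pecam1, for CD31, was at 6.24 ± 0.34 and 6.59 ± 0.51. Samples 13 and 14 stood apart from the rest. Xist, the RNA of the inactive X chromosome, was at 16.16 and 16.27 in them and between 5.89 and 9.32 in the other 6 samples, and the Y-linked gene Uty at 5.49 and 5.56 against 9.65 to 10.06. Member differences are therefore also given without both.

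Most of these genes differed between the populations. Of the 10 members, 6 were higher and 3 lower in CD90-positive cells, and 1, Tgfbr2, was not called. Over all genes tested 29.6% were called. The median size of the difference, regardless of sign, was 1.1 among the members and 0.18 among all genes tested; the median signed differences were 0.7 and -0.014. All 10 members reached the filter level of 5.36 in all 8 samples. That level lies under the negative controls (6.58 to 6.84 per array), so passing it does not show detection. The genes tested therefore include some dimmer than those controls, as is Ltbp2 among the members. Of the members called, 6 differed by at least 2-fold, 5 of them higher and 1 lower, against 7.18% of all genes tested. The ranges of both populations stayed apart in 9 members, with the CD90-positive values above in 6 and below in 3. Over all genes tested they stayed apart in 32.2%.

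**Figure D1:**
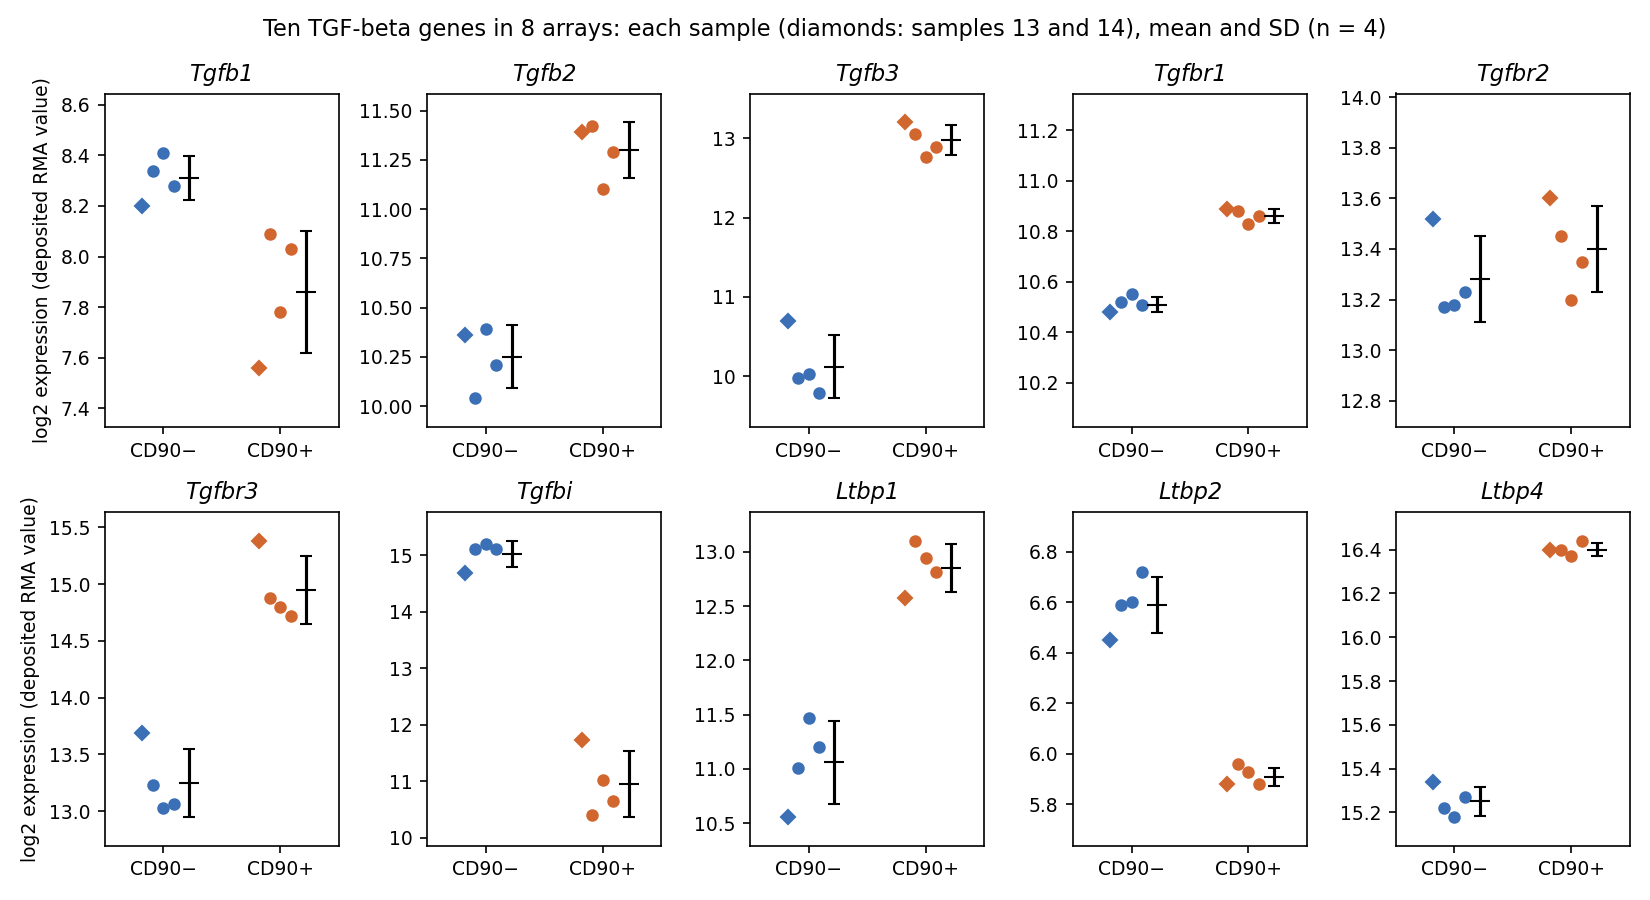
Deposited log2 expression (y axis, own scale in each panel) of the 10 genes in CD90-negative (blue) and CD90-positive (orange) samples; diamonds mark samples 13 and 14, and black bars the mean and SD of 4 samples. In 9 panels the colours do not overlap; in the Tgfbr2 panel they do.

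The sequences before the start sites of 4 members are shown because these genes form contrasting pairs: Tgfbi and Ltbp2 were lower, and Tgfb2 and Ltbp1 higher, in CD90-positive cells. They are the 250 bases before the start in RefSeq's promoter table (build GRCm38.p6), 5′ to 3′ on the gene's strand. Capitals mark CAGAC or its reverse complement GTCTG, the short box that SMAD proteins bind.
Tgfbi, chr13:56609336-56609585, plus strand: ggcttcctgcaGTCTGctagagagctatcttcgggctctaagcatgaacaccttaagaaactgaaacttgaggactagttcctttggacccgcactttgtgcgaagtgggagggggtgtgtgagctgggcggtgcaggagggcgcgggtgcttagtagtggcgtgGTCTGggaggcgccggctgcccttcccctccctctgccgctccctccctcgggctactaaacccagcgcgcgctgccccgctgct
Ltbp2, chr12:84876492-84876741, minus strand: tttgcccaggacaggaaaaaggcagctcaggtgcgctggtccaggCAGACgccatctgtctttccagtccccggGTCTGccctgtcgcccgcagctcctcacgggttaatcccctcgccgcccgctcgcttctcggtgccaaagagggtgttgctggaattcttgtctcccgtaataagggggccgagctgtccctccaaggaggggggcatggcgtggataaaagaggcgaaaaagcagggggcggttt
Tgfb2, chr1:186705990-186706239, minus strand: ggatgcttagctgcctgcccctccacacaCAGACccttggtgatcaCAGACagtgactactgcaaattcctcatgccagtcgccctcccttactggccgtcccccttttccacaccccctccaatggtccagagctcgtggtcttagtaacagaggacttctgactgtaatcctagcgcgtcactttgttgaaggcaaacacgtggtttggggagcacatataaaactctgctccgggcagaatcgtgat
Ltbp1, first of 2 listed starts, chr17:75005279-75005528, plus strand: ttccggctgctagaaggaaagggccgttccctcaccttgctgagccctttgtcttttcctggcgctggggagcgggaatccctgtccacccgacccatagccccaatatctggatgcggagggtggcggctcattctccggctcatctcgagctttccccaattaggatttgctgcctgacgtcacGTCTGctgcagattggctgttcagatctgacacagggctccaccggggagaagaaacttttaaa
Each of the 4 windows held this box, on one strand or the other, with 2 matches in Tgfbi, Ltbp2 and Tgfb2 and 1 in Ltbp1. This short motif was in 42.2% of the 32851 promoters of the same length, so its presence separates neither these genes from others nor the higher from the lower members. The table held 8 of the 10 members with 12 starts in all. CAGAC was found before at least 1 start of 6 of the 8. That count takes a gene with any of its starts, while the 42.2% is per promoter, so the shares cannot be compared directly. TGANTCA, the AP-1 motif, was in 6.75% of all promoters and before none of the members' starts. Both strands were searched for each motif, and no matches of different motifs overlapped in these windows. The Tgfb2 window held TATAAA, present in 12.4% of promoters, with its first base 31 bases before the start. GGGCGG, a GC box found in 32.7% of promoters, occurred 5 times before the Tgfb1 start and in all 3 Ltbp4 windows, 2 of which overlap. It also occurred before Tgfbi, Ltbp2 and the first listed start of Tgfbr1. A match is a description of the letters and not evidence of binding.

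The 3 ligand genes did not change alike. Tgfb3, the isoform best known from palate closure and scarless repair, was at 10.7, 9.97, 10.03 and 9.78 in CD90-negative samples 13, 15, 17 and 19 and at 13.2, 13.06, 12.76 and 12.89 in CD90-positive samples 14, 16, 18 and 20. Every CD90-positive value lay at least 2.07 above every CD90-negative one. The difference was 2.86 (SE 0.19, 95% interval 2.42 to 3.29; limma adjusted p = 1.16e-05), a 7.25-fold change on the deposited scale and the 89th highest of all genes tested. Tgfb2, the isoform that depends most on betaglycan for receptor binding, was at 10.36, 10.04, 10.39 and 10.21 against 11.39, 11.42, 11.1 and 11.29 in the same order of samples. It rose by 1.05 (SE 0.1; limma adjusted p = 0.000102), with a gap of 0.71 between the populations. Tgfb1, the isoform most widely made by immune and stromal cells, went the other way, from 8.2, 8.34, 8.41 and 8.28 down to 7.56, 8.09, 7.78 and 8.03. The populations did not overlap, but the gap was 0.12 and the difference -0.44 (SE 0.12; limma adjusted p = 0.0224). This call was lost when any 1 of samples 15, 17, 18 and 19 was left out, with a limma adjusted p of 0.0523, 0.0624, 0.0622 and 0.0513.

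Receptor genes were higher or did not pass the test. Tgfbr3, the betaglycan gene, lay at 13.69, 13.23, 13.03 and 13.06 in the CD90-negative and at 15.38, 14.88, 14.8 and 14.72 in the CD90-positive samples. The gap was 1.04 and the difference 1.7 (SE 0.18, 95% interval 1.28 to 2.11; limma adjusted p = 0.000182). Tgfbr1, the type I receptor kinase, had the tightest values of the receptors, 10.48, 10.52, 10.55 and 10.51 against 10.89, 10.88, 10.83 and 10.86. Its difference of 0.35 was small, but it was several times the spread within either population (SD 0.028 in each; limma adjusted p = 0.0012). Tgfbr2, the type II receptor that binds the ligand first, was at 13.52, 13.17, 13.18 and 13.23 against 13.6, 13.45, 13.2 and 13.35. These ranges overlapped, and the difference of 0.12 had a 95% interval from -0.13 to 0.38 (limma adjusted p = 0.446), so a change of more than 0.38 in either direction lies outside the interval.

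Among the latency genes Ltbp1 and Ltbp4 were higher and Ltbp2 lower. Ltbp1, whose product binds the latent complex through a disulfide bond and anchors it in the matrix, was at 10.56, 11.01, 11.47 and 11.2 in CD90-negative and at 12.57, 13.1, 12.94 and 12.81 in CD90-positive samples. It rose by 1.79 (SE 0.19, 95% interval 1.36 to 2.23; limma adjusted p = 0.000165). Ltbp4, whose product also takes part in elastic fibre assembly, was bright throughout, at 15.34, 15.22, 15.18 and 15.27 against 16.4, 16.4, 16.37 and 16.44. Its difference of 1.15 (SE 0.058, limma adjusted p = 2.55e-06) stood against a range of only 0.15 and 0.07 within the populations. All CD90-positive Ltbp4 values lay above 16, the scanner's end on a log2 scale. Whether the scale is compressed there was not tested. Ltbp2 codes for a family member that is not known to bind latent TGF-beta and sits on microfibrils. It fell from 6.45, 6.59, 6.6 and 6.72 to 5.88, 5.96, 5.93 and 5.88, by 0.68 (SE 0.07; limma adjusted p = 0.000141). All 8 Ltbp2 values were dimmer than the median negative control row of their own array (6.58 to 6.84), so the size of its difference is uncertain.

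Tgfbi had the largest difference of the members. This gene codes for a secreted protein that binds collagen and integrins. It was at 14.69, 15.1, 15.19 and 15.11 in CD90-negative and at 11.73, 10.4, 11.02 and 10.64 in CD90-positive samples. Sample 14 was the highest and sample 13 the lowest of their populations, and the gap between populations was still 2.96. The difference was -4.07 (SE 0.27, 95% interval -4.68 to -3.47; limma adjusted p = 9.98e-06), 16.8-fold on the deposited scale and the 26th lowest of all genes tested. It was lower in the cells in which Tgfb2, Tgfb3, Tgfbr1 and Tgfbr3 were higher, Tgfb1 was lower and Tgfbr2 was not called.

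**Figure D2:**
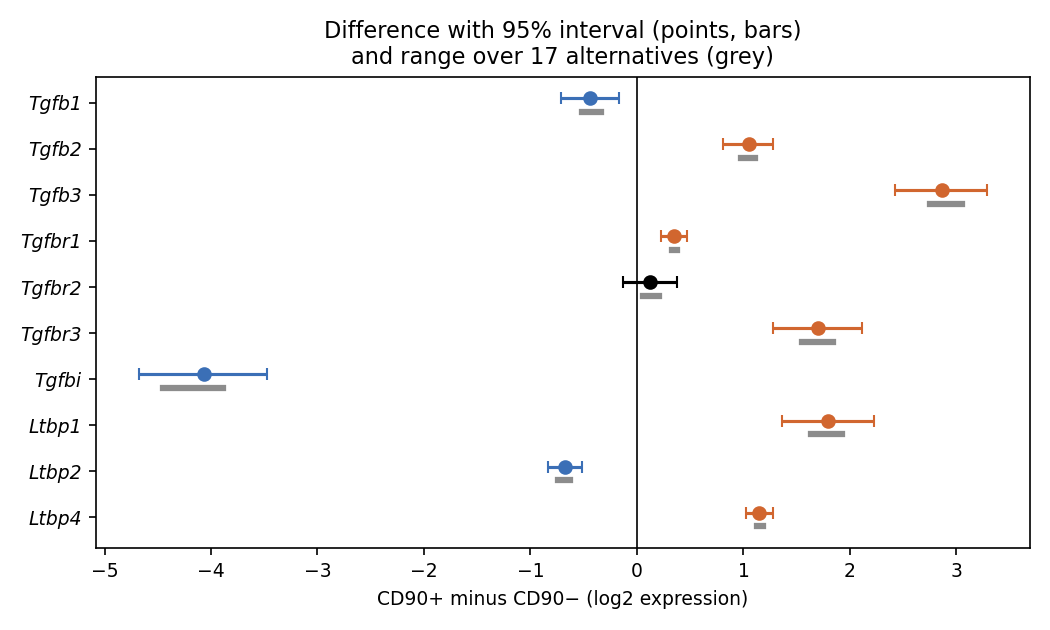
Differences in log2 expression, CD90-positive minus CD90-negative (x axis), of the 10 genes with their 95% intervals; orange was called higher, blue lower and black not called, and the grey bar gives the range of the difference over 17 alternatives. The intervals of 9 genes stay clear of 0, while that of Tgfbr2 runs from -0.13 to 0.38.

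Samples 13 and 14 deviated in the same direction for several members. Each had the highest value of its population for Tgfb3, Tgfbr2 and Tgfbr3, and each had the lowest for Tgfb1 and Ltbp1. Without both samples the differences were 2.98 for Tgfb3, 1.7 for Tgfbr3, 1.72 for Ltbp1, -4.45 for Tgfbi and -0.37 for Tgfb1, and the same 9 members were called (limma adjusted p from 3e-06 to 0.0239). Tgfbr2 was again not called (difference 0.14, limma adjusted p = 0.244).

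Whether genes of one role changed by different amounts was tested on the difference between both genes within each array, 9 pairs in all; these tests were added after the values had been seen. The rise of Tgfb3 exceeded that of Tgfb2 by 1.81, and Tgfb2 and Tgfb1 parted by 1.49. The rise of Tgfbr3 exceeded the difference of Tgfbr2 by 1.57 and that of Tgfbr1 by 1.35. In each of these the within-array values of the populations did not overlap (exact permutation test, two-sided, p = 0.0286, the lowest possible). Adjusted over the 9 pairs, this exact permutation p was 0.0368. The same held for Tgfb3 against Tgfb1, and for Ltbp1 and Ltbp4 against Ltbp2. Sizes against Ltbp2 are left out because all 8 Ltbp2 values were dimmer than the negative controls. For the pairs with Tgfb1 or Ltbp2 this outcome was fixed in advance. Tgfb1 and Ltbp2 were lower, and their partners higher, without overlap, so their within-array differences could not overlap. Those pairs are therefore no added support, though the adjustment over the 9 pairs counts them. Unequal change was not shown for Ltbp1 against Ltbp4 (difference of the changes 0.64, exact p = 0.0571, adjusted p = 0.0642) nor for Tgfbr1 against Tgfbr2 (0.23, exact p = 0.0857, adjusted p = 0.0857). Each gene pair was written with the larger change first, so its mean change is positive by construction. Pairs of one role share genes, so the 9 are not independent. Each gene has its own probes, so an unequal change holds on the deposited scale alone. Whether the probes respond alike was not tested. Samples of consecutive numbers were also taken as pairs, a hint from the data and not from the labels. The change was then positive in 4 of 4 pairs of samples for each of the 9 gene pairs, Ltbp1 with Ltbp4 and Tgfbr1 with Tgfbr2 included. That sign across gene pairs follows in part from the ordering. An exact sign-flip test over 4 pairs of samples gave p = 0.125 throughout, the lowest it can give, so unequal change passes no threshold on that reading.

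**Figure D3:**
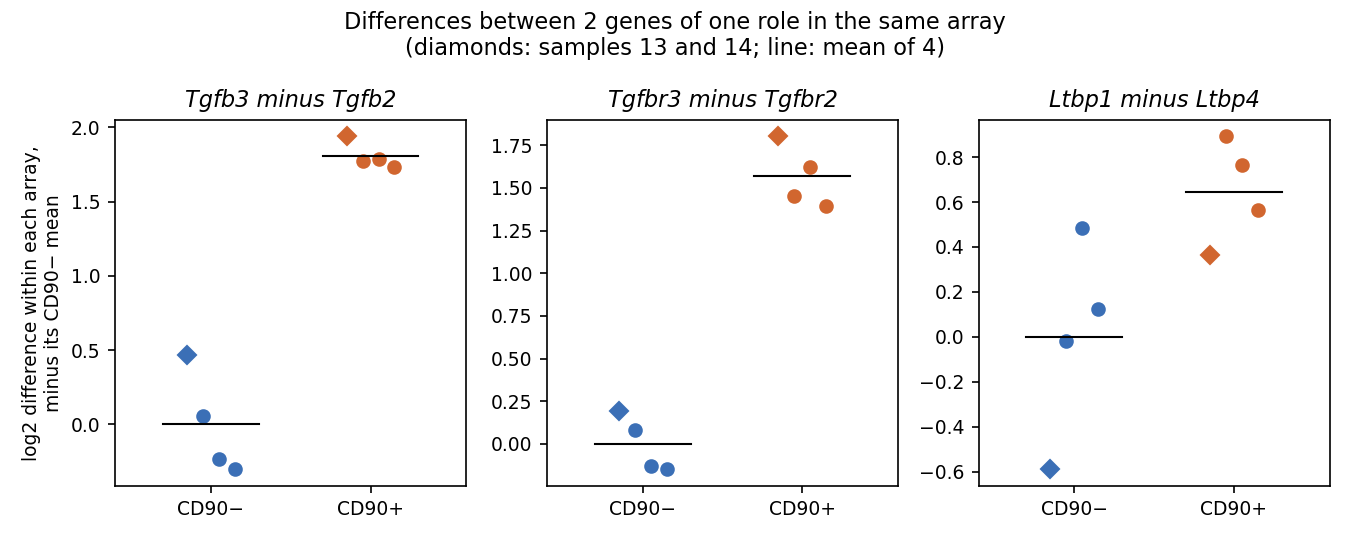
The log2 value of 1 gene minus that of another on the same array, shifted so that the CD90-negative mean is 0 (y axis), for a ligand pair, a receptor pair and a latency pair; each point is a sample, diamonds are samples 13 and 14, and lines are means of 4. The CD90-positive means sit 1.81, 1.57 and 0.64 above 0; the populations stay apart for the ligand and receptor pairs and overlap for Ltbp1 minus Ltbp4.

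Among other genes that store or activate the latent ligand the largest differences by size were in Plau and Fbn2, both lower in CD90-positive cells. Counts below stand against the 29.6% of all genes called. Of 5 other latency and microfibril genes tested, 1 was higher and 3 lower (median difference -0.7). Fbn2, a fibrillin of developing microfibrils, fell from 8.4 ± 0.53 to 6.22 ± 0.24; its CD90-positive values were all dimmer than the negative controls, so this size is not exact. Emilin1, whose product restrains proTGF-beta processing, fell from 9.84 ± 0.25 to 8.74 ± 0.15. Lrrc32, for the cell surface anchor GARP, fell by 0.7 (limma adjusted p = 0.0264), a call lost without sample 13, 17, 19 or 20 (up to 0.0692). Adamtsl2 rose from 5.39 ± 0.1 to 6.28 ± 0.13 and was dimmer than the negative controls on both sides. Ltbp3 was at 9.97 ± 0.11 and 10.11 ± 0.077 and did not pass (limma adjusted p = 0.187). Of 14 activators tested, 2 were higher and 5 lower (median difference 0.05). Plau, the urokinase gene, fell from 10.71 ± 0.47 to 6.75 ± 0.25 (limma adjusted p = 4.66e-06). Its CD90-positive mean was near the negative control level of that population (6.64). Itgav, the alpha chain of the integrins that open the latent complex, fell by 0.57, and the gelatinase gene Mmp2 by 0.86. Bmp1, a protease that cleaves LTBPs, rose by 0.95. Thbs1, the gene of the activator thrombospondin, was not called, at 16.42 ± 0.35 and 16.45 ± 0.18 (limma adjusted p = 0.917). Both Thbs1 means lay above 16, the scanner's end.

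Several co-receptors and modulators were higher, and in the signalling chain inside the cell Smad3 was higher while Smad2 and Smad4 were not called. Of 9 co-receptors and other modulators tested, 5 were higher and 1 lower (median difference 0.44). Cd109, a TGF-beta co-receptor that promotes receptor turnover, rose from 8.4 ± 0.49 to 10.09 ± 0.29, the decoy receptor gene Bambi from 6.76 ± 0.24 to 7.7 ± 0.23 and Dcn, for the TGF-beta-binding proteoglycan decorin, by 0.75. The CD90-negative mean of Bambi lay under the negative control level (6.81), so the size of its rise is not exact. Tgfbrap1, for a receptor-associated protein, fell from 9.86 ± 0.15 to 8.8 ± 0.046. Of 8 SMADs and partners tested, 1 was higher and 2 lower (median difference -0.03). Smad3 rose by 0.55, from 9.19 ± 0.094 to 9.74 ± 0.16, whereas Smad2 was at 9.95 ± 0.064 and 9.92 ± 0.093 (limma adjusted p = 0.805) and Smad4 at 11.28 ± 0.077 and 11.3 ± 0.041 (limma adjusted p = 0.877). The acetyltransferase gene Ep300 fell by 0.48 and Trim33 by 0.27, the latter near the threshold (limma adjusted p = 0.0403) and lost under 10 of 17 alternatives. Of 10 inhibitors of the pathway, 1 was higher and 4 lower (median difference 0.04). The inhibitors that fell were Pmepa1, which sequesters SMADs and is itself a TGF-beta target, from 13.29 ± 0.2 to 12.24 ± 0.39, the corepressors Tgif1 and Tgif2 by 0.63 and 0.55, and the ubiquitin ligase gene Nedd4l by 0.58. Tgif2 was dimmer than the negative controls in all 8 samples, so the size of its difference is uncertain. The feedback inhibitor Smad7 was at 7.32 ± 0.17 and 7.39 ± 0.092 (limma adjusted p = 0.63).

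**Figure D4:**
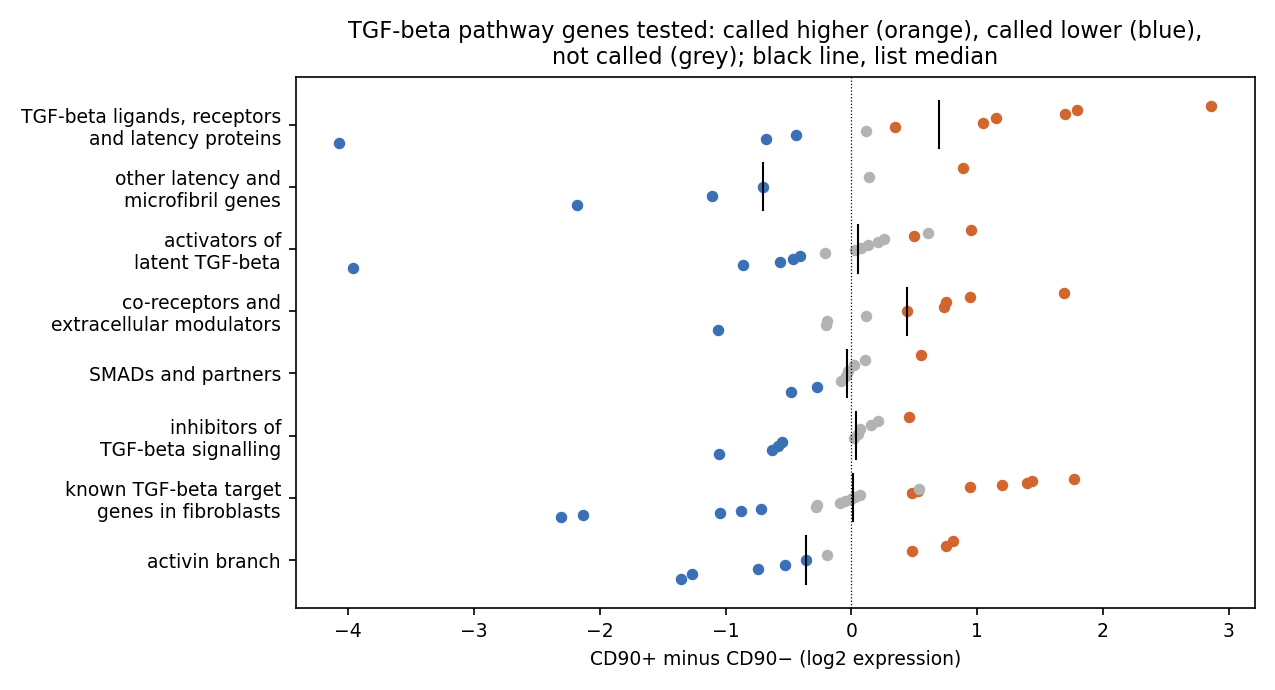
Differences in log2 expression, CD90-positive minus CD90-negative (x axis), of the genes tested in 8 TGF-beta pathway lists; each point is a gene, coloured by its call, and the black line is the list's median. Tgfbi at -4.07 and Plau at -3.96 lie farthest to the left and Tgfb3 at 2.86 farthest to the right, and the medians run from -0.7 to 0.7.

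Known TGF-beta target genes of fibroblasts split in direction. Of 20 tested, 7 were higher and 5 lower, with a median difference of 0.01 against -0.014 over all genes. Higher were Ccn2, a matricellular growth factor, from 6.79 ± 0.24 to 7.99 ± 0.24, the NADPH oxidase gene Nox4 from 6.67 ± 0.32 to 8.07 ± 0.15 and the lysyl oxidase gene Lox by 0.94. Col1a2, a collagen I chain, fell from 15.37 ± 0.084 to 14.65 ± 0.076. The contractile genes Acta2, Tagln and Cnn1 were named after their values were seen and did not go one way. Acta2 and Tagln fell from 15.99 ± 0.11 to 13.86 ± 0.86 and from 11.87 ± 0.28 to 9.56 ± 0.87, whereas Cnn1 rose from 6.74 ± 0.49 to 8.52 ± 0.76 (limma adjusted p = 0.0083). The CD90-negative means of Ccn2, Nox4 and Cnn1 lay under the negative control level (6.81), so the sizes of their rises are uncertain. Fn1 was not called, at 17.82 ± 0.068 and 17.85 ± 0.11, above the scanner's end of 16. Junb was not analysed here.

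Markers of some other cell types differed between the populations, while the list means of smooth muscle and endothelium overlapped. All 7 measured markers of enteric glia were higher in CD90-positive cells, where their list mean was 7.14 to 8.35 per sample against 5.44 to 5.81, and 2 markers had both means under those of the negative controls. Gfap, among the 7, reached the filter level of 5.36 in the CD90-positive samples only, so it was tested because it was high there. Kcna1 and Cdh19 rose by 5.18 and 5.16; their CD90-negative values were all dimmer than the negative controls, so these sizes are not exact. Of 8 smooth muscle markers 5 were higher and 2 lower, with overlapping list means (8.48 to 9.12 against 8.93 to 10.11). Sample 14 held the highest of these means, while samples 16, 18 and 20 were at 9.03, 8.93 and 8.94. Myh11 was at 10.97 ± 0.54 and 11.28 ± 0.86, Myocd rose by 1.83 and Smtn fell by 1.17. All CD90-negative values of Myocd were dimmer than the negative controls, so the size of its rise is not exact. Of 6 pericyte markers 3 were higher and 3 lower (8.05 to 8.39 against 7.45 to 7.68), and among them Abcc9 fell by 3.37 and Cspg4 fell by 1.53, while Mcam rose by 1.37. Of 5 leukocyte markers tested 4 were higher (list mean 5.52 to 5.73 against 5.8 to 6.25), led by Cd68 at 8.75 ± 0.12 and 9.8 ± 0.49 and Cx3cr1, which rose by 0.58, and 7 of the 9 measured had both means under those of the negative controls. Of 6 endothelial markers tested 1 was higher and 2 lower (5.99 to 6.53 against 6.05 to 6.63), with 6 of 8 measured having both means under those of the negative controls. Of the mesothelial and the neuronal markers tested, 1 of 2 and 2 of 2 were higher. The mesothelial marker Upk3b and the neuronal marker Ret likewise reached the filter level in the CD90-positive samples only. All measured markers of both lists had both means under those of the negative controls, and the list means were 4.66 to 4.81 against 5.17 to 5.67 and 4.77 to 4.8 against 5.01 to 5.14. The part of these cells in the differences of the TGF-beta genes was not tested.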

How the data were processed

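RNA of 8 sorted samples was measured on Affymetrix mouse transcriptome arrays, 1 per sample; per the labels' protocols, 2 ng RNA was amplified with a pico kit. The authors deposited log2 values per transcript cluster, made with Affymetrix Expression Console 1.1 and RMA (background correction, quantile normalization, probe summary), per the submitters' processing notes; the settings and genome build are not given in the sources used here. Such amplification can widen the scatter of dim transcripts.

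The table held 65956 transcript clusters beside 6732 control rows; 31221 clusters named 1 gene, 1529 several and 33206 none here. Names repeated in a row were merged and symbols updated through RefSeq (GRCm38.p6). The cluster with the highest mean over 8 samples stood for a gene and was kept if at least 4 samples reached 5.36, the median of all cluster values. The 17232 genes left were fitted with limma 3.58.1 (lmFit and eBayes, no block) under R 4.3.3 and adjusted by Benjamini-Hochberg (threshold 0.05, both directions); the step was checked on simulated data. Exact permutation tests used all 70 assignments of 8 samples, taken as exchangeable. The number of arrays limits the precision.

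Members and lists were chosen with earlier results of these data known. Named were all members, the sort genes, for each pathway list up to 4 called genes of lowest p, and of the cell type lists no more than the 2 brightest genes and 2 called ones of lowest p; where others are named with values (Ltbp3, Thbs1, Smad2, Smad4, Smad7, Fn1, Acta2, Tagln, Cnn1, Xist, Uty), they were chosen after their values were seen. Alternatives changed the filter, normalization, variance model, array weights, cluster choice, block and samples. Exact sign-flip tests over consecutive numbers used all 16 assignments. Scripts used Python 3.11.15, pandas 2.3.3, scipy 1.17.1 and matplotlib 3.10.9.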

Additional observations from a re-analysis of the deposited data

Results flagged for a closer look

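Within a population, 15 of 126 groups of 4 samples (each gene given with values, in each population) had 1 sample set far apart from the other 3, where chance gives about 1 in 20. In CD90-negative sample 13, Plau was at 10.01 against 10.85 to 11.02, Pmepa1 at 12.99 against 13.38 to 13.4, Nox4 at 7.14 against 6.51 to 6.52, Cnn1 at 7.48 against 6.46 to 6.53 and Uty at 5.49 against 9.94 to 10.06. In CD90-positive sample 14, Mmp2 was at 15.37 against 15.04 to 15.07, Pmepa1 at 11.65 against 12.42 to 12.45, Fn1 at 17.68 against 17.89 to 17.91 and Uty at 5.56 against 9.65 to 9.76. The contractile genes Tagln, Cnn1, Myh11 and Smtn were high in that sample, at 10.86 against 8.97 to 9.21, 9.65 against 8.01 to 8.28, 12.58 against 10.83 to 10.87 and 9.77 against 9.29 to 9.32, and Pdpn was at 13.54 against 13.06 to 13.11. The remaining one was Ptprc in CD90-negative sample 15, at 4.74 against 4.49 to 4.53. None of the 10 members was among them.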

How the results depend on the processing

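No member changed direction under the 17 alternatives run, and 9 of the 10 kept their side of the threshold under all of them; the exception was Tgfb1, whose call was lost without single samples. Of 27 other pathway genes named by rule 25 kept their side and direction, the exceptions being Lrrc32 and Trim33, which lost their calls. Of 9 named after their values were seen (alternatives added then), Ltbp3, Acta2, Tagln and Cnn1 kept theirs. The other 5 were not called under any alternative, and their differences near 0 changed sign under some: Thbs1 was at -0.06 after quantile normalization, -0.02 with array weights and -0.12 to 0.17 leaving out single samples, Smad2 at 0.02 after quantile normalization and -0.07 to 0.0008, Smad4 at -0.003 with array weights and -0.01 to 0.04, Smad7 at -0.002 to 0.12 and Fn1 at -0.004 to 0.09. Counts of calls that moved by over 1.5 times were these. Lower activators numbered 3 after another quantile normalization. Lower co-receptors and modulators numbered 2 without a filter and with the replicate block, and 1 to 2 leaving out single samples. Lower SMADs and partners numbered 1 without a filter, after quantile normalization, after centring and without samples 13 and 14, and 1 to 2 leaving out single samples. Higher inhibitors numbered 2 after centring and with array weights. Over the whole array 3911 to 5131 genes were called leaving out single samples and 7011 with array weights, against 5105. The labels number no samples alike across populations. As a hint from the data only, samples with consecutive numbers deviated together (r across genes 0.284 to 0.45), and with these pairs as a replicate block 2767 genes were higher and 3172 lower, with 6 members higher and 3 lower as before. The within-array comparisons of 2 members, rerun without single samples, without samples 13 and 14 and after quantile normalization (chosen after seeing the data), kept their direction in all 9 pairs; with 3 samples in a population their exact p cannot go below 0.0571, and with 3 against 3 not below 0.1. Dim signal limits the sizes given for Ltbp2, Adamtsl2, Tgif2 and Fbn2. The same limit holds for Thy1, Kcna1, Cdh19, Myocd, Cx3cr1 and Inhba. It also holds for Nox4, Cnn1, Bambi and Ccn2, whose CD90-negative means lay under the negative control level (6.81).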

Other observations

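In the activin branch, which shares SMAD2 and SMAD3 with TGF-beta, 3 of 9 tested genes were higher and 5 lower in CD90-positive cells (median difference -0.36; 29.6% of all genes were called). Inhba, the activin A subunit gene, fell from 7.89 ± 0.17 to 6.63 ± 0.19 (limma adjusted p = 6.89e-05), and the receptor genes Acvr1b and Acvr2a rose from 7.29 ± 0.12 to 8.04 ± 0.15 and from 8.77 ± 0.18 to 9.58 ± 0.21 (limma adjusted p = 0.000432 and 0.00141). Fst, for the activin-binding follistatin, fell from 8.32 ± 0.45 to 6.97 ± 0.2. The CD90-positive mean of Inhba was dimmer than the median negative control.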
